A study of Mus musculus with 20 samples.

Results

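The 10 genes described here, which answer to growth signals and handling stress, were followed in colonic organoids (colonoids) of WT and Tnfr2-/- mice during the week after passage. They were the transcription factor genes Fos, Fosb, Jun, Junb, Atf3 and Egr1, the immediate early response genes Ier2 and Ier3, and the inhibitors Dusp1 and Zfp36. They were picked by gene symbol, by a rule that uses no measured value, though with earlier results of these data known. They are 10 of 35240 gene symbols in the abundance table. All 10 were among the 13539 genes with a mean abundance of at least 1, the genes that were tested.

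Immediate early genes are transcribed within minutes of a stimulus, before new protein is made, by factors such as SRF with its ETS partners and CREB that wait in the nucleus for MAP kinase signals. Fos and Jun proteins pair to form AP-1, which binds the promoters of growth, repair and inflammatory genes. The response is brief because it carries its own brakes: Dusp1 dephosphorylates MAP kinases, and Zfp36 (tristetraprolin) binds AU-rich elements in the 3′ untranslated region of short-lived mRNAs and speeds their decay. In gut tissue these genes are known to rise when crypts are isolated or cells are dissociated, so they are often read as a mark of handling.

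Crypts from the colon of WT (C57BL/6) mice and of mice lacking Tnfr2 (gene Tnfrsf1b, a receptor for TNF) in the whole body were cultured in Matrigel with Intesticult medium, filtered through a mesh after repeated passage, reseeded, and collected on 5 days: day 1, then days 2 and 3, and later days 5 and 7. Days are counted from passage (DPP). Each of the 10 groups, a genotype at a day, had 2 libraries, which carry 1 of 2 codes in the labels. The code is not spelled out there and is read here as the mouse, so that a mouse would have given 1 library at each of the 5 days and the 20 libraries would come from 4 mice. All fits with the mouse as a block or as means rest on that reading. Early means 1 to 3 DPP and late means 5 and 7 DPP. The labels state no link between mouse 1 of one genotype and mouse 1 of the other, and no fit paired them. No library analysed here was taken in the first hours after passage, and RNA came from whole cultures, which can hold fibroblasts beside epithelium. If the code is the mouse, its 5 libraries share an animal. P-values for genotype over several days treat these libraries as separate and are then too small to that extent. Comparisons between days would lie within a mouse. The fit with the mouse as a block is given where it changed a call. The early, late and passage comparisons reuse the same libraries and are not independent of each other.

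Abundance is the TPM value of a gene divided by a size factor for the library, summed over the gene's transcripts. It is scaled per transcript length, so levels of different genes can be set side by side. Libraries summed to between 900655 and 1111080 units, and the mice of a group correlated at 0.923 to 0.956 across genes on the log2 scale. The targeted gene Tnfrsf1b stood at 15.3 ± 3.09 (SD, n = 10 libraries) in WT and at 5.80 ± 2.84 (n = 10) in Tnfr2-/- colonoids, where the lowest WT library (11.1) and the highest Tnfr2-/- library (11.5) overlapped. All 8 epithelial markers had a mean of at least 1 in early and late libraries of both genotypes, with sums from 11639 to 20031. Summed fibroblast markers (10 genes) ranged from 2092 to 4296 in early WT, 1242 to 4051 in late WT, 3148 to 4697 in early Tnfr2-/- and 3728 to 8594 in late Tnfr2-/- libraries. Of 8 immune markers, Cd68 and Csf1r reached a mean of 1, Tyrobp was listed at 0 throughout, and the sums ran from 8.53 to 21.0 in WT and from 17.3 to 48.4 in Tnfr2-/- libraries. Of 4 endothelial markers 1 was tested and not called in any comparison, and Emcn was listed at 0 throughout. In bulk RNA, more cells of a type and more RNA per cell cannot be told apart.

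The control regions of these genes are shown because they hold the letters through which such genes are known to be switched on. RefSeq promoters (GRCm38.p6) were found for 8 of the 10 genes, with none for Egr1 and Ier2. In the runs below, capitals mark the CREB-binding site TGACG (the core of the cAMP response element, CRE) on either strand, the TATA box TATAA on the gene's strand, and the NF-kappaB site, and each run stops before the first annotated exon.
Fos, chr12:85473730-85473889, plus strand: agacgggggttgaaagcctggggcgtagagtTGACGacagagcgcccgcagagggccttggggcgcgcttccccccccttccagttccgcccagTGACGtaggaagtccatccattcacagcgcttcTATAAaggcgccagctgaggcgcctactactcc
Junb, chr8:84978749-84978908, minus strand: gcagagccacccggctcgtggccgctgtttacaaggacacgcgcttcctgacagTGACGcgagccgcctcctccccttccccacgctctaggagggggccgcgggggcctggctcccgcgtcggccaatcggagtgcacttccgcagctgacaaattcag
Ier3, chr17:35821553-35821683, plus strand: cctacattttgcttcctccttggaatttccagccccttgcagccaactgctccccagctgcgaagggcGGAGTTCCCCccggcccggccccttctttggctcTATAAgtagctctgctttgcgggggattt
Dusp1, chr17:26508520-26508632, minus strand: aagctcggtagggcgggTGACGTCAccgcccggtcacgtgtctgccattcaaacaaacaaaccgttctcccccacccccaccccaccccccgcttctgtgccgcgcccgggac

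Within the 250 bases before the RefSeq start, TGACG was present in 5 of 8 promoters (Fos, Fosb, Junb, Atf3 and Dusp1), against 17.8% of all 32851 promoters. The full CRE TGACGTCA, which contains TGACG on both strands, stood only in Dusp1 among the 8, at positions -143 to -136 from the start, and in 1.55% of all. The NF-kappaB site was found in Fos, Fosb and Ier3 (7.25% of all), TATAA in Fos and Ier3 (16.0% of all), the EGR site GCGNGGGCG in Fosb and Zfp36 (4.70% of all) and the CArG box, which SRF binds, in Zfp36 (1.47% of all). The AP-1 site TGANTCA was in none of the 8 windows and in 6.75% of all. These matches describe letters in a short window and not occupied sites.

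The 3′ untranslated regions were rich in the pentamer ATTTA, the core of the AU-rich element that Zfp36 binds. In the most abundant coding transcript of each gene (GENCODE M21), 6 of the 10 had 3 or more copies, against 30.9% of 12644 tested genes, and the median density was 3.58 per kb against 1.104. Ier3 carried 5 copies in 613 bases, Fos, Jun and Dusp1 carried 4 each, and Ier2 and Fosb carried 0. The Fosb transcript searched had a region of 210 bases, a mean of 0.871 and a value of 0 in 9 libraries. Other coding transcripts of Fosb were not searched. In 5 of the 10 there was a stretch of 30 bases with 2 copies (15.9% of tested genes), printed here as DNA with ATTTA in capitals.
Fos, chr12:85477090-85477119, plus strand: aacgtttttattgtgttttcaATTTATTTA
Jun, chr4:95049210-95049239, minus strand: gtgatcATTTAtaatcataggaaagATTTA
Ier3, chr17:35822476-35822505, plus strand: ctccgtgtctaattaatATTTAtgtATTTA
Dusp1, chr17:26506167-26506196, minus strand: ggctcatgggagctggtccttATTTATTTA
Zfp36, chr7:28376963-28376992, minus strand: tgggccctttATTTAtgacgactttATTTA
Zfp36 mRNA, whose protein acts on such elements, thus carries them itself.

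The genes differed widely in level. Ier3, a small membrane-associated regulator of cell survival, was the most abundant, with a mean of 314 over 20 libraries (137 to 608) and more than 96.7% of tested genes below it. Junb followed at 155 (105 to 237). Fos (77.2), Egr1 (56.7), Jun (49.9) and Ier2 (49.4) lay close together, and their ranges over libraries overlapped. Zfp36 (35.5), Dusp1 (28.7) and Atf3 (26.8) formed a lower group. Fosb, another AP-1 subunit, had a mean of 1.68 and ranged from 0.192 to 5.76 over 7 annotated transcripts. At this level its values are imprecise.

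**Figure D1:**
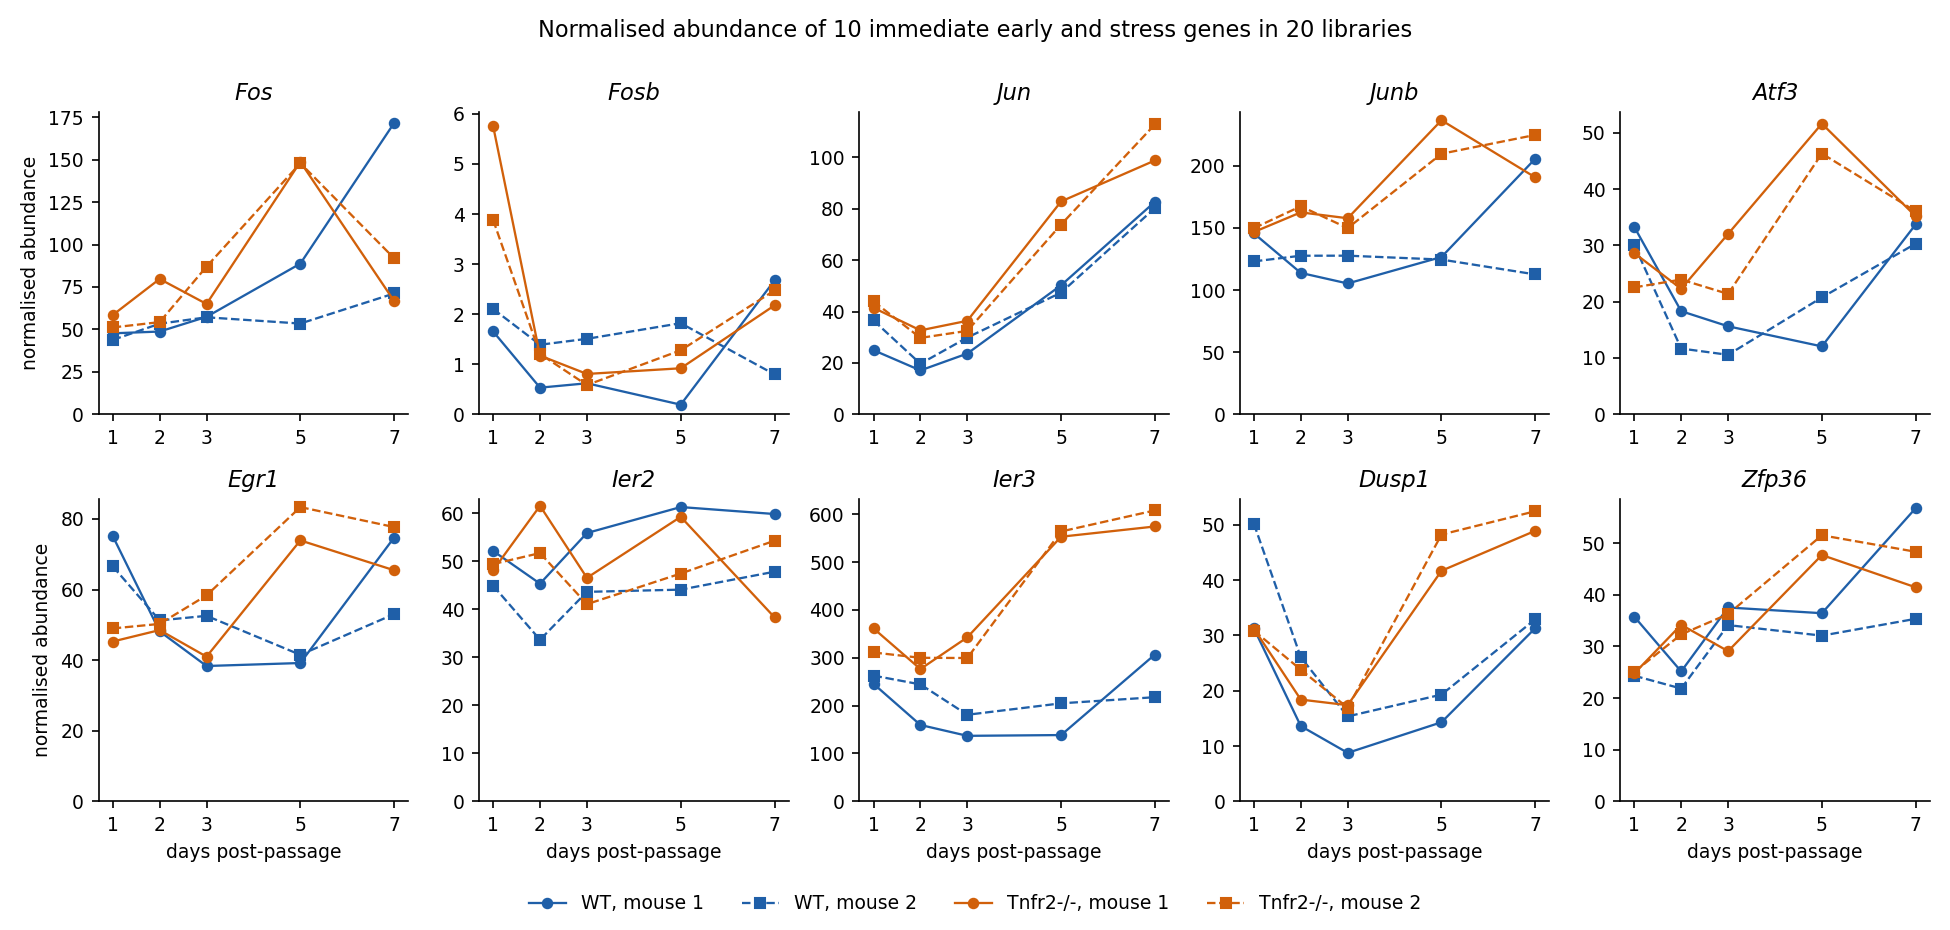
Normalised abundance (y axis, linear, from 0) of each gene by days post-passage (x axis), with 1 line per mouse (blue WT, orange Tnfr2-/-; circles and solid lines mouse 1, squares and dashed lines mouse 2). Jun was highest at 7 DPP in all 4 mice, whereas Ier3 lay higher in both Tnfr2-/- mice than in both WT mice at every day.

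The first question was whether the day after passage stood out. Over both genotypes, Fosb and Dusp1 of the 10 genes were higher at 1 DPP than over the later 4 days, and Fos, Jun and Zfp36 were lower (limma on log2(abundance + 1), called at an adjusted p under 0.05). This comparison was not fitted within a genotype, and for some genes, Dusp1 among them, the genotypes differed, as given below. Of all tested genes 13.9% were called, 5.86% higher and 8.09% lower. With libraries scaled to the same sum the higher calls stood (adjusted p of 0.0189 for Fosb and 0.0183 for Dusp1) and all 3 lower calls were lost, Fos at -0.49 (adjusted p = 0.0668), Zfp36 at -0.28 (adjusted p = 0.0981) and Jun at -0.20 (adjusted p = 0.220). The median log2 difference was 0.02 over the 10 genes and 0.00 over all genes. Of 8 epithelial markers 4 were lower and 0 higher at 1 DPP (median -0.38; Vil1, -0.77 ± 0.19, adjusted p = 0.0189), and of 10 fibroblast markers 1 was higher (Dcn, 0.65 ± 0.18, adjusted p = 0.0257) and 2 lower (Col1a1, -1.14 ± 0.28, adjusted p = 0.0181). Their part in the 1 DPP results was not tested.

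Dusp1 stood at 31.3 and 50.2 in WT and at 31.2 and 30.9 in Tnfr2-/- colonoids at 1 DPP. Only in WT was the 1 DPP mean the highest of the 5 days. Both Tnfr2-/- mice were higher at 5 DPP (41.7 and 48.2) and at 7 DPP (48.9 and 52.5). At 3 DPP it stood at 8.77 and 15.4 in WT and at 17.4 and 16.9 in Tnfr2-/- colonoids, so that every mouse was lower at 3 than at 1 DPP. Over both genotypes, the difference between 1 DPP and the later days was 0.55 ± 0.17 (SE, log2, adjusted p = 0.0499). The step from 1 to 2 DPP was -0.79 ± 0.22 (adjusted p = 0.132), and with the mouse as a fixed block the adjusted p was 0.0149.

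Fosb was lower at 2 than at 1 DPP in all 4 mice. In Tnfr2-/- colonoids it went from 5.76 to 1.17 in mouse 1 and from 3.88 to 1.21 in mouse 2, and in WT from 1.65 to 0.532 and from 2.10 to 1.39. Its 1 DPP difference was 0.91 ± 0.26 (adjusted p = 0.0358), and 0.40 with a pseudocount of 5 in place of 1.

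Jun, the main AP-1 partner of Fos, was also lower at 2 than at 1 DPP in all 4 mice. It went from 25.0 to 17.1 and 36.5 to 19.7 in the WT mice, and from 41.4 to 32.7 and 43.9 to 29.7 in the Tnfr2-/- mice. Over the 10 genes none was called between 1 and 2 DPP (0.761% of all genes were), with 4 at an unadjusted p under 0.05. For Jun the step was -0.57 ± 0.13 (adjusted p = 0.0634, 0.0333 with the mouse as a fixed block, 0.0231 without the WT 1 DPP library of mouse 1 and 0.0444 with libraries scaled to the same sum). Its 1 DPP level was nevertheless below the mean of the later days (-0.33 ± 0.10, adjusted p = 0.0483), and was -0.19 (adjusted p = 0.283) without the WT 1 DPP library of mouse 1.

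Fos was at its lowest at 1 DPP in each of the 4 mice, at 47.7 and 43.8 in WT and 58.5 and 51.1 in Tnfr2-/- colonoids, and the 1 DPP difference was -0.62 ± 0.19 (adjusted p = 0.0457). Zfp36 was lower at 1 DPP over both genotypes (-0.41 ± 0.13, adjusted p = 0.0443), with 35.8 and 24.3 in WT and 24.8 and 25.1 in Tnfr2-/- colonoids. Both WT mice were lower still at 2 DPP (25.2 and 21.8). Egr1, Atf3, Ier2, Ier3 and Junb were not called over both genotypes (-0.13 to 0.24 on the log2 scale). Mean Egr1 at 1 DPP was its highest of the 5 days in WT (70.9) and its lowest in Tnfr2-/- colonoids (47.1). Mean Atf3 at 1 DPP was 31.7 in WT, near its highest (32.0 at 7 DPP). In Tnfr2-/- colonoids it was 25.6, near its lowest (23.1 at 2 DPP).
The adjusted p of the 5 calls at 1 DPP lay between 0.0358 and 0.0499. They were kept in 11 (Fosb), 7 (Zfp36), 5 (Fos), 5 (Dusp1) and 3 (Jun) of the 20 fits that left out 1 library, with adjusted p up to 0.283. No gene was called between 2 and 3 DPP, where 0% of all genes were and 1 of the 10 had an unadjusted p under 0.05 in limma.

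Late cultures held more of these mRNAs than early ones. Over both genotypes 8 of the 10 genes were higher at 5 and 7 DPP (32.7% of all tested genes were called and 18% were higher), all but Fosb and Ier2. The median log2 difference was 0.49 for the 10 genes and 0.01 for all genes. Egr1 (0.26 ± 0.09, adjusted p = 0.0490) kept this call in 3 of 20 fits without 1 library and 5 of 10 other settings, and its adjusted p was 0.141 with libraries scaled to the same sum. Junb lost it without the Tnfr2-/- 5 DPP library of mouse 1 (adjusted p = 0.0611) or the 7 DPP one of mouse 2 (adjusted p = 0.0645), and its difference of 0.31 was 0.21 without the WT 7 DPP library of mouse 1. Within WT colonoids 2 were called, Fos and Jun (20.1% of all genes called, 11.6% higher and 8.52% lower). Within Tnfr2-/- colonoids 8 were called (20.3% of all genes, 10.4% higher and 9.93% lower).

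**Figure D2:**
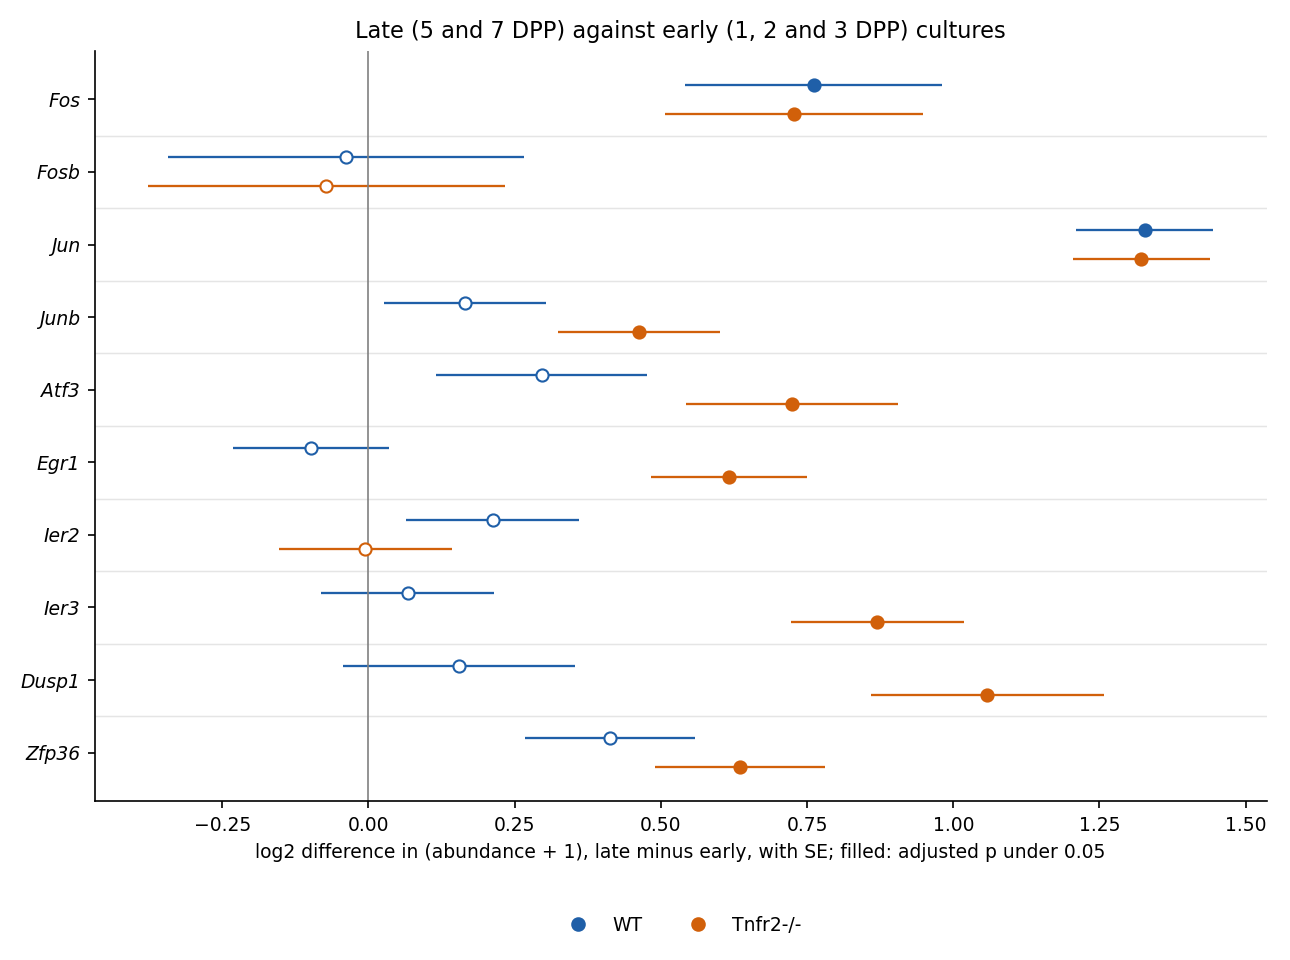
Log2 difference in (abundance + 1) between late and early cultures (x axis; points with SE bars) for each gene, blue for WT and orange for Tnfr2-/-. Filled points passed an adjusted p of 0.05: 2 genes in WT and 8 in Tnfr2-/- colonoids, all to the right of 0.

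Jun rose most of the 10, in both genotypes. It stood at 17.1 to 36.5 in early and 47.4 to 82.7 in late WT libraries, and at 29.7 to 43.9 and 73.9 to 113 in Tnfr2-/- libraries, with no overlap between early and late in either. The log2 difference was 1.33 ± 0.12 in WT (adjusted p = 6.34e-05) and 1.32 ± 0.12 in Tnfr2-/- colonoids (adjusted p = 5.02e-05), and the difference between the 2 was -0.01 ± 0.17. Jun was called for the step from 3 to 5 DPP (1.01 ± 0.13, adjusted p = 0.00584), as was Dusp1 (0.91 ± 0.22, adjusted p = 0.0493), against 2.18% of all genes (1.21% higher). Jun kept its late call in both genotypes in all 20 fits without 1 library, whereas Dusp1 kept its 5 DPP step in 6. These fits keep both mice of each genotype. Leaving out a whole mouse is a harder check, included in the ranges at the end. None of the 10 was called between 5 and 7 DPP (0.0222% of all genes), with 2 at an unadjusted p under 0.05 in limma, Jun (0.58 ± 0.13, adjusted p = 0.132) and Dusp1 (0.54 ± 0.22, adjusted p = 0.362). Jun was higher at 7 than at 5 DPP in all 4 mice.

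Fos was highest on different days in the genotypes. Both Tnfr2-/- mice peaked at 5 DPP (149 and 148) and were at 66.7 and 91.9 at 7 DPP. The WT mice were at 88.7 and 53.5 at 5 DPP and reached 172 and 71.2 at 7 DPP. The late-against-early difference was 0.76 ± 0.22 in WT (adjusted p = 0.0270), and without the WT 7 DPP library of mouse 1 it was 0.45 (adjusted p = 0.137). The call was also lost without the WT 5 DPP library of mouse 1 (adjusted p = 0.132) and, narrowly, without any of 3 early WT libraries. In Tnfr2-/- colonoids it was 0.73 ± 0.22 (adjusted p = 0.0321), a call kept in 13 of 20 fits without 1 library.

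Dusp1 and Ier3 rose late in Tnfr2-/- colonoids. Dusp1 went from 16.9 to 31.2 in early libraries to 41.7 to 52.5 in late ones (1.06 ± 0.20, adjusted p = 0.00263), whereas in WT it was at 8.77 to 50.2 and 14.3 to 32.9 (0.16 ± 0.20, adjusted p = 0.624). Ier3 went from 276 to 361 to 553 to 608 in Tnfr2-/- colonoids (0.87 ± 0.15, adjusted p = 0.00147), and the WT ranges were 137 to 263 and 138 to 307 (0.07 ± 0.15, adjusted p = 0.790). Every late Tnfr2-/- library was above every early one for 7 of the 10 genes, these 2 and Jun, Junb, Atf3, Egr1 and Zfp36 (9.56% of all genes). In WT that held for 1, Jun (4.97% of all genes).

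Egr1, a zinc finger factor, and Atf3, a stress-induced repressor of the ATF/CREB family, moved the same way. Egr1 in Tnfr2-/- colonoids lay at 41.0 to 58.3 early and 65.5 to 83.4 late (0.62 ± 0.13, adjusted p = 0.00594). In WT it was 38.3 to 75.2 early and 39.2 to 74.8 late (-0.10 ± 0.13, adjusted p = 0.643). Atf3 in Tnfr2-/- colonoids lay at 21.4 to 32.0 early and 35.2 to 51.6 late (0.72 ± 0.18, adjusted p = 0.0128). That call was lost without the Tnfr2-/- 5 DPP library of mouse 1 (adjusted p = 0.0524). In WT, Atf3 went from 33.3 and 30.04 at 1 DPP to 15.6 and 10.6 at 3 DPP and was back at 33.7 and 30.3 at 7 DPP, a trough within the week that the early and late means do not show.

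Zfp36 rose by 0.64 ± 0.14 in Tnfr2-/- colonoids (adjusted p = 0.00800) and differed by 0.41 ± 0.14 in WT (adjusted p = 0.0601, and 0.0168 with the mouse as a fixed block). Junb rose by 0.46 ± 0.14 in Tnfr2-/- colonoids (adjusted p = 0.0304), a call kept in 11 of 20 fits without 1 library, and differed by 0.16 ± 0.14 in WT (adjusted p = 0.433). Without the WT 7 DPP library of mouse 2 both genes were called in WT, Junb at 0.38 (adjusted p = 0.0186) and Zfp36 at 0.58 (adjusted p = 0.0114). Zfp36 was also called without the WT 1 DPP library of mouse 1 (adjusted p = 0.0316). Ier2, a nuclear early-response protein, stayed between 33.7 and 61.6 in all 20 libraries, and its late-against-early difference was 0.10 ± 0.10 (adjusted p = 0.489).

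Since 8 genes were called in one genotype and 2 in the other, the late gain of the Tnfr2-/- colonoids was set against that of WT in a test of its own. None of the 10 passed (0.148% of all genes did). Egr1 (0.72 ± 0.19, adjusted p = 0.173), Ier3 (0.80 ± 0.21, adjusted p = 0.166) and Dusp1 (0.90 ± 0.28, adjusted p = 0.236) reached an unadjusted p under 0.05 in limma. Dusp1 passed once the mouse entered as a fixed block (adjusted p = 0.0365). Of 10 fibroblast markers, 3 were higher and 0 lower late in Tnfr2-/- colonoids (median 0.66), 1 was higher and 1 lower in WT (median -0.31), and 1 passed the test of the late gain. Their part in the late results was not tested.

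The second question was how the genotypes differed. Over all days Ier3, Jun and Junb were higher in Tnfr2-/- colonoids and none of the 10 was lower (7.6% of all genes called, 4.51% higher). Ier3 was higher by 0.98 ± 0.14 (adjusted p = 0.000543), Jun by 0.52 ± 0.08 (adjusted p = 0.000783) and Junb by 0.45 ± 0.10 (adjusted p = 0.0106). All 10 estimates were positive, with a median of 0.39 against -0.03 over all genes. Without 1 WT library Fos (0.47, adjusted p = 0.0373, 7 DPP, mouse 1) and Dusp1 (0.57, adjusted p = 0.0430, 1 DPP, mouse 2) were called as well, and Atf3 was without any of 3 libraries at 1 DPP (adjusted p from 0.0338 to 0.0474). Averaged to 1 value per mouse, 2 mice against 2, none was called, with adjusted p of 0.119 for Ier3, 0.281 for Jun and 0.273 for Junb. Markers of other cells were higher as well: 3 of 10 fibroblast markers (Dcn, 1.65 ± 0.26, adjusted p = 0.00101), both tested immune markers (Cd68, 1.13 ± 0.17, adjusted p = 0.000449) and 2 of 8 epithelial markers (Epcam, 0.36 ± 0.10, adjusted p = 0.0335). Their part was not tested.

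At the early days Ier3 (0.65 ± 0.13, adjusted p = 0.0298) and Jun (0.53 ± 0.10, adjusted p = 0.0271) were called, against 1.2% of all genes (0.768% higher). With the mouse as a correlated block their adjusted p were 0.0566 and 0.0508, and on mouse means 0.398 and 0.523. Ier3 kept the call in 10 and Jun in 11 of the 20 fits without 1 library (adjusted p up to 0.0988). Jun also lost it with libraries scaled to the same sum (adjusted p = 0.0673) and Ier3 without the mean-variance trend (adjusted p = 0.0562). Every early Tnfr2-/- library was above every early WT library for Ier3 (276 to 361 against 137 to 263) and, by a narrow gap, for Junb (147 to 167 against 105 to 146). Such a separation upward was seen in 0.576% of all genes. Summed immune markers, which include Cd68, did not overlap at these days either (8.53 to 14.9 in WT and 17.3 to 28.6 in Tnfr2-/- libraries). Cd68 (0.99 ± 0.20, adjusted p = 0.0283) and Dcn (0.93 ± 0.18, adjusted p = 0.0242) were higher, 1 of 2 tested immune and 1 of 10 fibroblast markers. Their part was not tested.

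At the late days 6 of the 10 were higher in Tnfr2-/- colonoids (6.45% of all genes called, 3.8% higher and 2.64% lower). Ier3 differed most, at 138 to 307 in WT and 553 to 608 in Tnfr2-/- libraries, a ratio of means of 2.65 (1.46 ± 0.16, adjusted p = 0.000235). Dusp1 was at 14.3 to 32.9 and 41.7 to 52.5 (1.01 ± 0.22, adjusted p = 0.0169), and Atf3 at 12.1 to 33.7 and 35.2 to 51.6 (0.86 ± 0.20, adjusted p = 0.0226). For these 3 genes the genotypes did not overlap, as for 5.35% of all genes. Junb (0.63 ± 0.15, adjusted p = 0.0263), Egr1 (0.56 ± 0.15, adjusted p = 0.0372) and Jun (0.52 ± 0.13, adjusted p = 0.0297) were called with overlapping libraries. Fos, Fosb, Ier2 and Zfp36 were not (-0.10 to 0.30 on the log2 scale).
Ier3 kept its late call in all 20 fits without 1 library, which keep both mice of each genotype. Dusp1 lost it without any of 3 libraries, the WT 5 DPP one of mouse 1 and the Tnfr2-/- 5 and 7 DPP ones of mouse 2 (adjusted p up to 0.0800). The others lost it without any of 5 (Junb), 6 (Atf3), 7 (Jun) or 10 (Egr1) libraries, with adjusted p up to 0.126. Jun also lost it with libraries scaled to the same sum (adjusted p = 0.0644) and Egr1 without the mean-variance trend (adjusted p = 0.0535), and the Junb difference was 0.42 without the WT 7 DPP library of mouse 2. On mouse means none was called, with an adjusted p of 0.119 for Ier3 and 0.204 for Dusp1. Fibroblast markers moved with this comparison: 2 of 10 were called higher, and the summed markers, 1242 to 4051 in WT and 3728 to 8594 in Tnfr2-/- libraries, overlapped only between 3728 and 4051. Dcn was at 135 to 402 and 1493 to 2551. Of 2 tested immune markers, 1 was called higher too, Cd68, at 7.12 to 15.8 in WT and 19.0 to 42.5 in Tnfr2-/- libraries (1.35 ± 0.24, adjusted p = 0.00640). Summed immune markers, which include Cd68, stood at 10.2 to 21.0 and 25.6 to 48.4 and did not overlap. Tyrobp, also in that sum, was listed at 0 throughout. Mitochondrial genes made up 5.38 to 6.83% of late WT and 4.90 to 5.27% of late Tnfr2-/- abundance, again without overlap, against 4.15 to 5.46% and 4.34 to 5.57% early. Their part in the result was not tested.

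**Figure D3:**
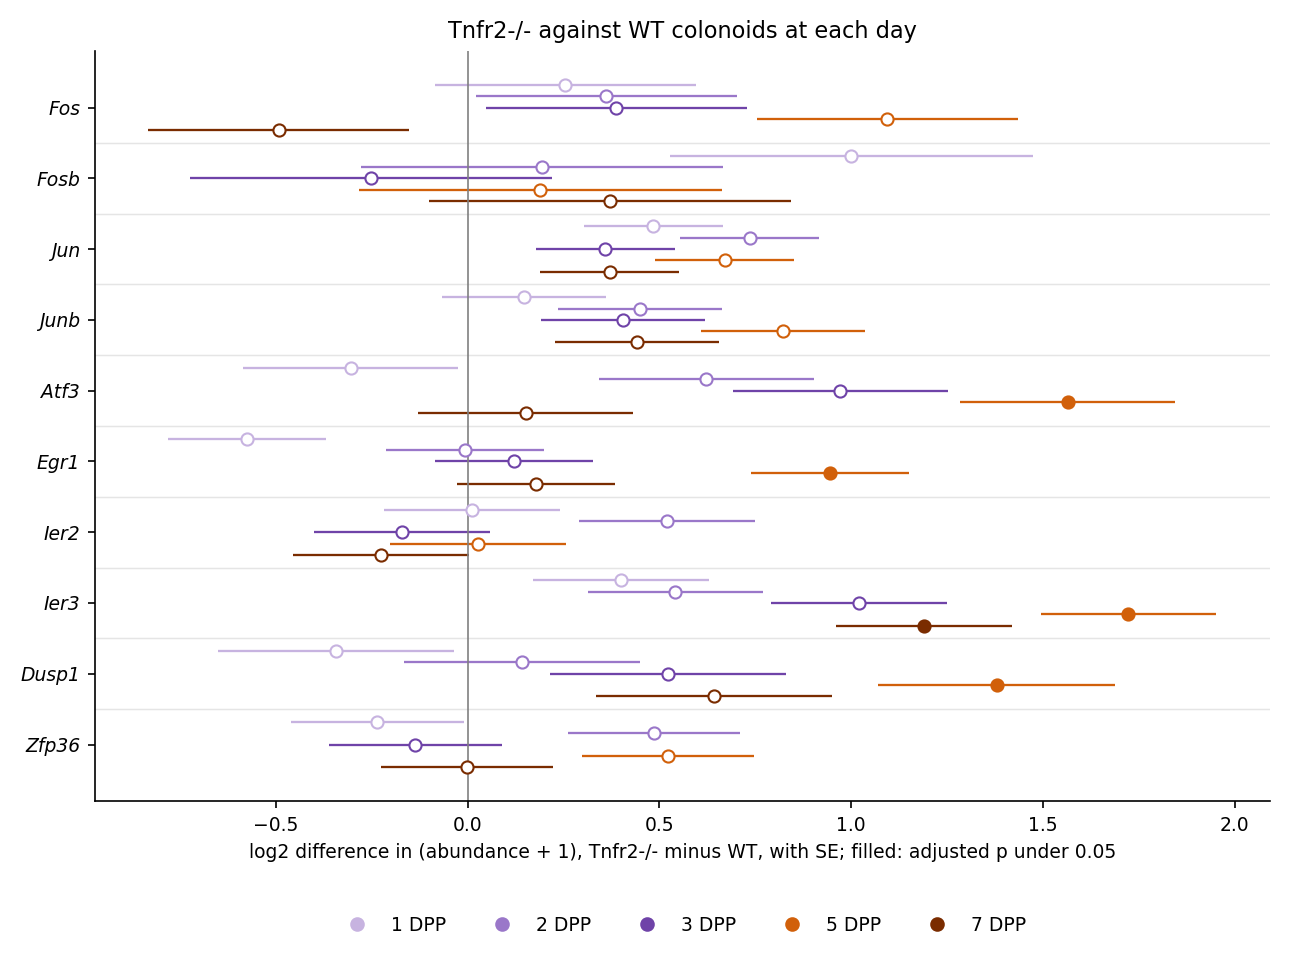
Log2 difference in (abundance + 1), Tnfr2-/- minus WT (x axis; points with SE bars), for each gene at each of the 5 days (colours). Filled points passed an adjusted p of 0.05: Ier3, Atf3, Dusp1 and Egr1 at 5 DPP and Ier3 at 7 DPP.

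The genotypes were also compared day by day. At 1 DPP none was called (0.0739% of all genes were), and Fos, Fosb, Jun, Junb and Ier3, 5 of the 10, were above WT in both mice (19.3% of all genes). Egr1 was then lower in both Tnfr2-/- mice (45.3 and 49.0) than in both WT mice (75.2 and 66.6), a difference of -0.58 ± 0.21 (adjusted p = 0.630). Atf3 (28.6 and 22.5 against 33.3 and 30.04) and Dusp1 (31.2 and 30.9 against 31.3 and 50.2) were lower in both as well, for Dusp1 by a very narrow gap. Below-WT separation held for 17.9% of all genes on that day, with 2 libraries a side.

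At 5 DPP the order was the opposite for these 3 genes. Both Tnfr2-/- mice were above both WT mice for 8 of the 10 genes (19.9% of all genes), the exceptions being Fosb and Ier2. An order below WT at 1 DPP and above it at 5 DPP was seen in 3.04% of all genes. At 5 DPP 4 of the 10 were called (1.65% of all genes, 1.21% higher). Ier3 was at 553 and 564 against 138 and 205 (1.72 ± 0.23, adjusted p = 0.00180). Atf3 was at 51.6 and 46.3 against 12.1 and 20.8 (1.57 ± 0.28, adjusted p = 0.0145). Egr1 stood at 73.9 and 83.4 against 39.2 and 41.5 (0.94 ± 0.21, adjusted p = 0.0381) and Dusp1 at 41.7 and 48.2 against 14.3 and 19.3 (1.38 ± 0.31, adjusted p = 0.0421). The ratios of means ran from 1.95 for Egr1 to 3.25 for Ier3. Fos, at 149 and 148 against 88.7 and 53.5, had a ratio of 2.09 and was not called (1.09 ± 0.34, adjusted p = 0.134). Nor was Junb (0.82 ± 0.21, adjusted p = 0.0761), and both were called when 1 of the 2 WT 7 DPP libraries, whichever it was, was left out (adjusted p from 0.0101 to 0.0424). Ier3 kept its 5 DPP call in all 20 fits without 1 library, Atf3 in 17, Dusp1 in 9 and Egr1 in 8. With all libraries, Dusp1 also lost it when they were scaled to the same sum (limma adjusted p = 0.0604). The same held without the low-value filter (adjusted p = 0.0636) or the mean-variance trend (adjusted p = 0.0558). The change of the genotype difference from 1 to 5 DPP, a comparison added after the values were seen, was 1.87 ± 0.40 for Atf3 (adjusted p = 0.107), 1.72 ± 0.44 for Dusp1 (adjusted p = 0.194) and 1.52 ± 0.29 for Egr1 (adjusted p = 0.0985). None of the 10 passed in limma (0.0591% of all genes did), while 6 of them had an unadjusted p under 0.05. Dusp1 (adjusted p = 0.0315) and Egr1 (adjusted p = 0.0449) passed once the mouse was a fixed block. For Atf3 the change was 2.24 without the WT 5 DPP library of mouse 2, which leaves 1 WT library at that day.

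At 7 DPP 4 of the 10 genes, Jun, Atf3, Ier3 and Dusp1, were above WT in both mice (20.5% of all genes). Ier3 was still higher (574 and 608 against 307 and 218, 1.19 ± 0.23, adjusted p = 0.0321) and was the only one of the 10 called (0.82% of all genes, 0.62% higher). That call was lost without any of 7 libraries. Dusp1 stood at 48.9 and 52.5 against 31.3 and 32.9 (ratio 1.58; 0.64 ± 0.31, adjusted p = 0.376) and Jun at 98.8 and 113 against 82.7 and 80.3 (0.37 ± 0.18, adjusted p = 0.385). The Junb difference of 0.44 (adjusted p = 0.381) became 0.87 without the WT 7 DPP library of mouse 1, which leaves 1 WT library at that day. Atf3 (35.2 and 36.1 against 33.7 and 30.3) differed by 0.15 ± 0.28 (adjusted p = 0.856), Egr1 overlapped, and Fos was lower in the Tnfr2-/- mean (ratio 0.653) with overlapping mice. In the WT 7 DPP group 9 of the 10 genes were higher in mouse 1 than in mouse 2, while 49.5% of all genes were, and the largest gap was 1.26 for Fos. In the Tnfr2-/- 7 DPP group 0 of the 10 were higher in mouse 1, while 46.7% of all genes were.
None of the 10 was called at 2 DPP (0.096% of all genes) or 3 DPP (0.155%), where 5 and 2 had an unadjusted p under 0.05 in limma. Both Tnfr2-/- mice were above both WT mice for 7 of the 10 at 2 DPP (17.6% of all genes) and 6 at 3 DPP (17.1%).

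The makeup of AP-1 mRNA differed between days. Fosl1 (Fra-1) and Fosl2 (Fra-2) are slower Fos-family proteins that outlast Fos after a stimulus. In WT, Fos made up 32.1% of the summed Fos-family abundance at 1 DPP (31.5 and 32.6% in the 2 mice) and 58.1% at 7 DPP (49.6 and 66.7%), while Fosl1 went from 42.7% to 11.6%. In Tnfr2-/- colonoids Fos went from 37.2% at 1 DPP to 62.5% at 5 DPP and 39.8% at 7 DPP, and Fosl1 was at 24.5% at 7 DPP (22.7 and 26.3%), above both WT mice (7.53 and 15.7%). Fosl1 itself was higher at 1 DPP than later (0.84 ± 0.12, adjusted p = 0.000957), and Fosl2 lower (-0.33 ± 0.10, adjusted p = 0.0428). Among Jun proteins, Junb and Jund, which is constitutive in many cells, supplied most of the abundance, and Jun went from 10.2% at 1 DPP to 23.2% at 7 DPP in WT and from 12.0% to 21.4% in Tnfr2-/- colonoids. These shares describe gene sums and were not tested. The Fos sum includes processed transcripts without an annotated coding sequence, 32.1% of its mean over all libraries.

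**Figure D4:**
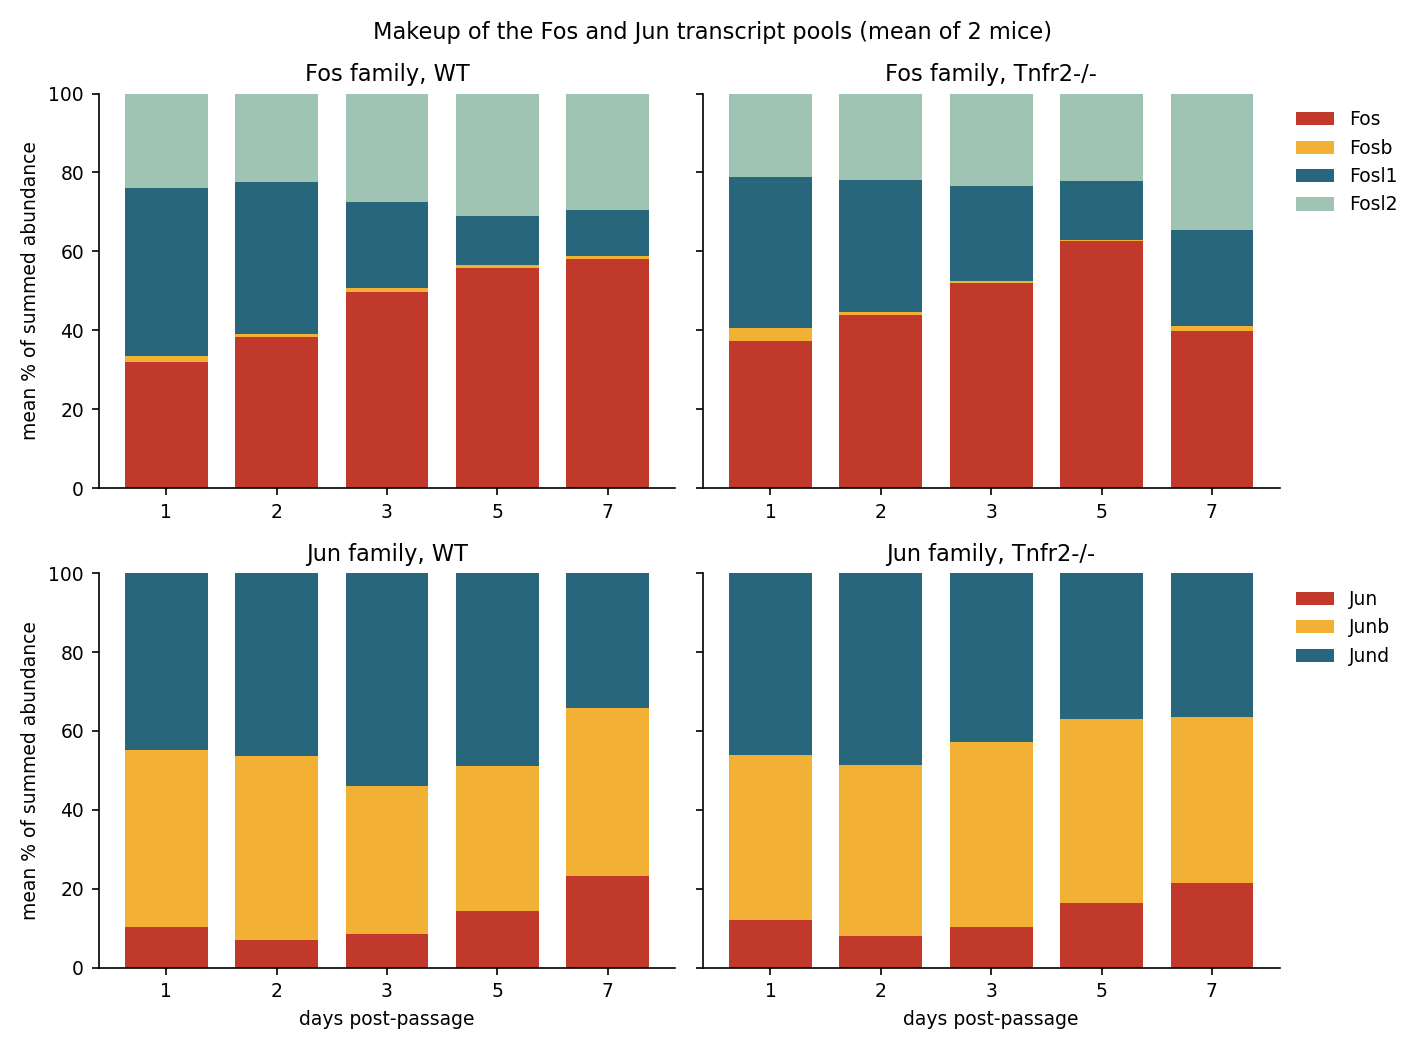
Mean share of the summed abundance (y axis, percent) of each Fos-family gene (top) and Jun-family gene (bottom) by days post-passage (x axis), WT left and Tnfr2-/- right, each bar the mean of 2 mice. The Fos share went from 32.1% to 58.1% in WT and was highest at 62.5% at 5 DPP in Tnfr2-/- colonoids. Sums include transcripts without an annotated coding sequence.

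Other genes of the pathway, from lists drawn up by function, were read out of the same fits. Their counts stand against 32.7% of all genes called late against early (18% higher), 13.9% at 1 DPP, and 6.45% for genotype late (3.8% higher). Of 26 tested further immediate early genes, 10 were higher and 4 lower in late cultures (median 0.30 against 0.01 over all genes). Rhob, a small GTPase, rose most (2.27 ± 0.15, adjusted p = 1.08e-06), and Tiparp, a mono-ADP-ribosyltransferase, fell (-0.58 ± 0.10, adjusted p = 0.000506) after being high at 1 DPP (0.90 ± 0.12, adjusted p = 0.000551). Btg2, an antiproliferative early gene, was low at 1 DPP (-0.85 ± 0.12, adjusted p = 0.000796). In Tnfr2-/- against WT late cultures 6 of the 26 were higher and 0 lower, led by Csrnp1 (2.78 to 8.36 in WT and 13.2 to 19.5 in Tnfr2-/- libraries, 1.55 ± 0.31, adjusted p = 0.0115). Over all days Ccn2, a matricellular protein, led (1.101 ± 0.27, adjusted p = 0.0182).

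Among 14 tested AP-1 and bZIP relatives, 4 were higher and 0 lower in late Tnfr2-/- cultures. Cebpb, an acute-phase bZIP factor, was at 9.64 to 14.7 in WT and 22.8 to 51.8 in Tnfr2-/- libraries (1.23 ± 0.23, adjusted p = 0.00862). Maff, a small Maf protein, was higher over all days (0.56 ± 0.12, adjusted p = 0.0111).

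The feedback inhibitors split by member. Of 15 tested, 5 were higher and 0 lower at 1 DPP, led by the ERK phosphatase Dusp5 (1.32 ± 0.17, adjusted p = 0.000544), and late cultures held 3 higher and 3 lower. Dusp4, also an ERK phosphatase, rose late (1.28 ± 0.13, adjusted p = 1.38e-05) and was higher in late Tnfr2-/- cultures, at 26.4 to 115 in WT and 129 to 169 in Tnfr2-/- libraries (1.33 ± 0.20, adjusted p = 0.00203). Dusp14 fell late (-1.17 ± 0.13, adjusted p = 2.10e-05). Of 24 upstream kinases and SRF, ETS and CREB factors, 5 were higher and 1 lower late and 2 higher and 0 lower in late Tnfr2-/- cultures. Map2k6, a p38 kinase kinase, rose late (1.03 ± 0.25, adjusted p = 0.00601), Srf fell (-0.38 ± 0.11, adjusted p = 0.0186), and the ETS factor Elk3 was higher in late Tnfr2-/- cultures (0.70 ± 0.15, adjusted p = 0.0163).

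Known AU-rich mRNAs, the targets of Zfp36 and its relatives, gave the highest share of calls of any list in late Tnfr2-/- against WT cultures. Of 19 tested, 13 were higher and 0 lower, with a median of 1.37 against -0.05 over all genes. They are mostly cytokines and chemokines, which fibroblasts also make. Il6 was at 24.4 to 44.5 in late Tnfr2-/- libraries and at 0 to 3.95 in late WT libraries, with a median of 0 (4.58 ± 0.42, adjusted p = 5.53e-05). Late against early, 11 of the 19 were higher and 1 lower in Tnfr2-/- colonoids (median 1.02), and 1 was higher and 6 lower in WT (median -0.43). Of all genes 10.4% were higher and 9.93% lower in the first, and 11.6% and 8.52% in the second. Cxcl2, called in the comparison over both genotypes (1.36 ± 0.24, adjusted p = 0.000721), went from 5.43 to 21.8 in early to 36.1 to 58.7 in late Tnfr2-/- libraries, whereas the WT ranges, 1.21 to 17.1 and 3.23 to 16.1, overlapped. Ccl2 was high at 1 DPP (1.98 ± 0.33, adjusted p = 0.00209). In the test of the late gain between genotypes 5 of the 19 passed, all higher. Among 15 RNA-decay factors, 6 were higher and 1 lower late, led by the Zfp36 relative Zfp36l1 (0.84 ± 0.11, adjusted p = 9.50e-05) with Hnrnpd lower (-0.38 ± 0.11, adjusted p = 0.0159), and 0 were higher and 1 lower in late Tnfr2-/- cultures (Tia1, -0.58 ± 0.13, adjusted p = 0.0208).

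Of 16 heat shock genes 8 were lower and 1 higher late (median -0.19), with Hsph1 lower (-1.04 ± 0.09, adjusted p = 4.78e-06) and the co-chaperone Bag3 higher (0.36 ± 0.07, adjusted p = 0.00161). In late Tnfr2-/- against WT cultures 1 was higher, the small heat shock protein gene Hspb1 (1.41 ± 0.36, adjusted p = 0.0329). Of 16 DNA damage and integrated stress genes 5 were lower and 0 higher at 1 DPP, led by Trib3 (-1.65 ± 0.16, adjusted p = 8.87e-05). Gadd45a, a growth arrest gene, rose late (1.28 ± 0.26, adjusted p = 0.00181), and Tnfr2-/- and WT late cultures gave 0 calls among the 16 in limma (5 at an unadjusted p under 0.05), against 2 higher over all days. The epithelial markers, 8 tested, included 4 higher and 2 lower in late cultures, with Epcam higher (1.45 ± 0.09, adjusted p = 1.05e-06), and 0 called between the genotypes late in limma (3 at an unadjusted p under 0.05). Of 10 fibroblast markers 3 were higher and 0 lower in late cultures, with Thy1 higher (1.54 ± 0.37, adjusted p = 0.00576), and both tested immune markers were higher.

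**Figure D5:**
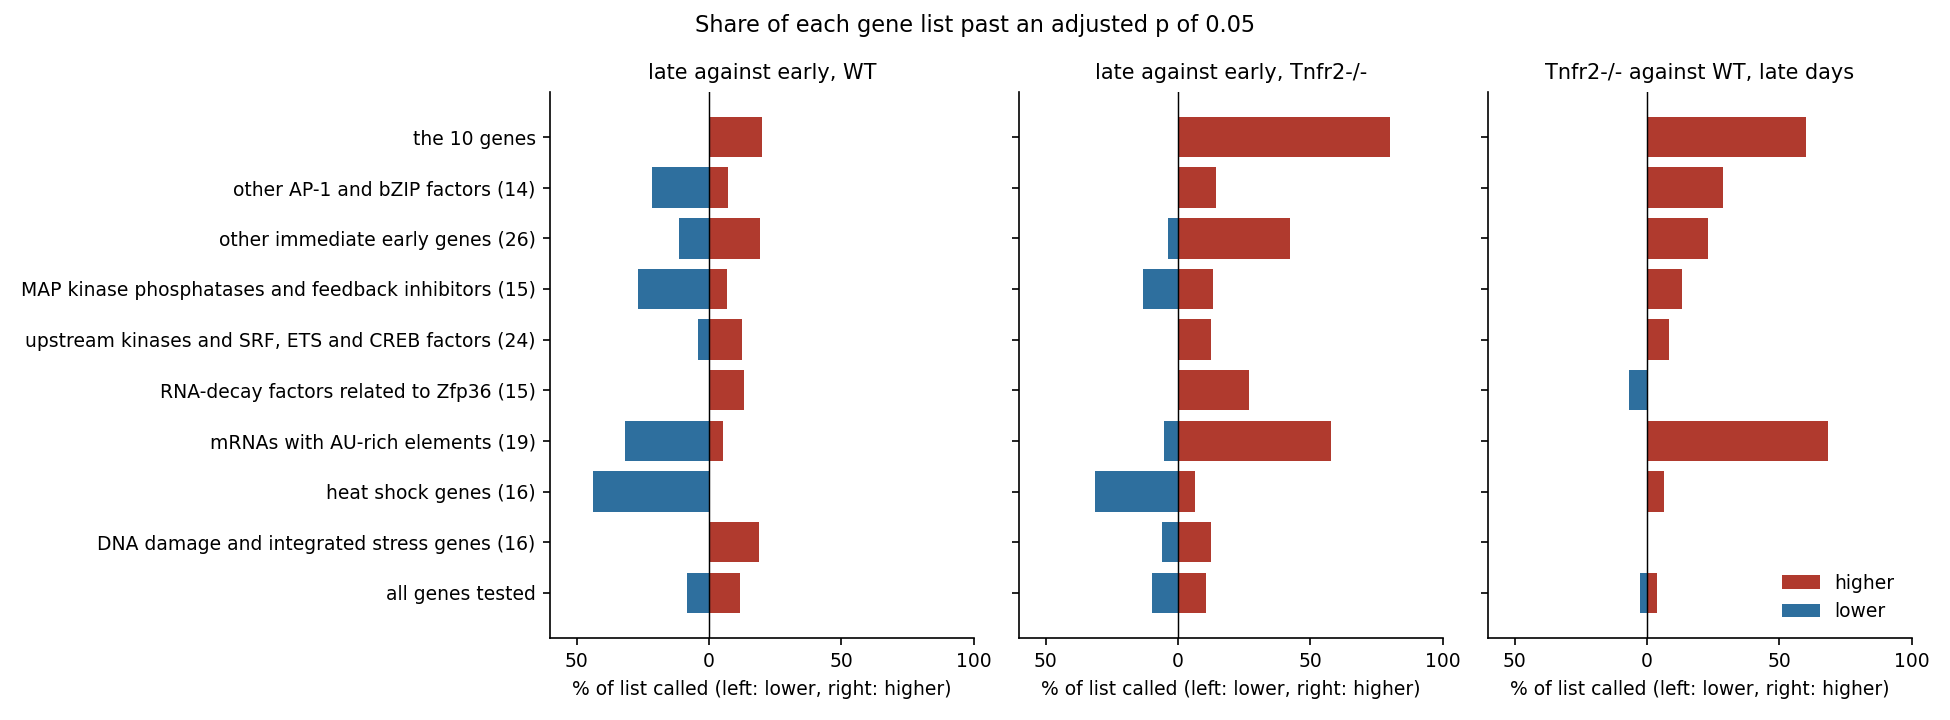
Percent of tested genes in each list (x axis, higher to the right and lower to the left of 0) called at an adjusted p of 0.05, for late against early cultures in WT (left) and Tnfr2-/- (middle) and for Tnfr2-/- against WT at the late days (right); numbers of tested genes stand in brackets. The 10 genes reach 8 of 10 in the middle panel and the AU-rich mRNAs 13 of 19 in the right one.

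Across the 20 libraries the 10 genes went up and down together in part. Of their 45 pairs, 40 correlated positively, with a median Pearson r of 0.50 on log2 values, a range from -0.13 to 0.88, and 23 pairs above 0.5. The closest pairs were Junb with Ier3 (0.88) and Fos with Zfp36 (0.83). The genes whose values followed the mean standardised profile of the 10 most closely, out of 8884 with a mean of at least 10, were Il13ra1 (r = 0.93), Dusp4, Maff, Mxd1, Prdx5 (each 0.92), Hs3st1 (0.92), Cd47 (0.91) and Trim15 (0.90). For single genes the nearest were Rhob (0.98) and Sox4 (0.98) for Jun, Trim15 (0.96) and Tnfrsf9 (0.95) for Ier3, Fam167a (0.95) and Tnfaip3 (0.94) for Dusp1, and Sh3yl1 (0.92) and Cbr2 (0.89) for Zfp36. Prdx5 (0.91) and Stom (0.90) came nearest to Junb, Alkbh5 (0.90) and Gcnt1 (0.89) to Fos, Hs3st1 (0.88) and Rab6a (0.88) to Atf3, and Tnfaip3 (0.88) and Il11 (0.87) to Egr1. Ier2 (Tmem30b, 0.75, and Tbc1d2, 0.73) and Fosb (Capns1, 0.76, and Tpbg, 0.74) had no comparably close neighbour. The libraries share mice and days, so these correlations describe the series.

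The gene sums joined transcripts of different kinds. Jun, Ier2 and Ier3 had 1 transcript each, and Egr1, Junb and Zfp36 sums were wholly protein coding. For Fos, 67.9% of the mean sum lay in the protein-coding transcript and 32.1% in processed transcripts without an annotated coding sequence. The coding transcript alone was at 35.7 ± 3.54 (SD, n = 6) in early and 59.7 ± 25.8 (n = 4) in late WT libraries, and at 47.8 ± 8.26 and 76.9 ± 22.1 in Tnfr2-/- libraries. Dusp1 was 76.5% protein coding and 23.5% retained intron. Its coding transcript stood at 12.6 to 22.0 in late WT and 34.9 to 42.2 in late Tnfr2-/- libraries, again without overlap. For Atf3, 42.8% lay in a processed transcript, and its coding transcript of highest mean was at 5.88 to 15.3 in late WT and 6.29 to 19.7 in late Tnfr2-/- libraries, which overlapped. The split among overlapping transcripts is an estimate from short reads.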

How the data were processed

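Stranded mRNA was sequenced as single-end reads. Per the labels, the submitters' processing notes name CASAVA, kallisto, sleuth and mm10. The deposited values are a normalised signal: the authors estimated TPM per transcript and divided by a size factor for each library, with replicates kept apart. The values hold no read counts, so no counting error is given. After 781 repeated lines were dropped, transcripts were summed per gene symbol. Genes with a mean of at least 1 were tested on log2(abundance + 1) with limma 3.58.1 (R 4.3.3) and a mean-variance trend, over 10 group means or, for genotype over all days, day plus genotype. P-values were adjusted by Benjamini-Hochberg over all 13539 genes, two-sided, and called under 0.05. A fold on this scale understates changes of low genes. Tests were tried on simulated data. Alternatives changed the pseudocount, filter, scaling, trend, summing and mouse term, or left out each library or mouse.

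The 10 genes and all lists were chosen with earlier results of these data known. Beyond the 10, each list names its called gene of largest change per direction and comparison, some of them here, and likeness names the highest correlations. Same-numbered libraries of a genotype were taken as 1 mouse, from codes that the labels do not spell out. Their deviations from group means correlated at 0.0997 to 0.307 in WT and -0.0511 to 0.0800 in Tnfr2-/- colonoids. Marker lists covered epithelium, fibroblasts, immune cells and endothelium. Sequences came from RefSeq promoters and from GRCm38 with GENCODE M21, and tables were handled in Python 3.11.15 with pandas 2.3.3, numpy 2.4.6 and matplotlib 3.10.9.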

Additional observations from a re-analysis of the deposited data

Results flagged for a closer look

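For 3 genes the genotype difference lay on opposite sides at 1 and 5 DPP: Atf3, Egr1 and Dusp1 were lower in both Tnfr2-/- libraries than in both WT libraries at 1 DPP and higher in both at 5 DPP. Of all genes, 17.9% were below in both at 1 DPP, 19.9% above in both at 5 DPP, and 3.04% did both, with 2 libraries a side. The change of the genotype difference between these days was 1.87 for Atf3, 1.52 for Egr1 and 1.72 for Dusp1 on the log2 scale. It was tested after these values had been seen, and the limma adjusted p were 0.107, 0.0985 and 0.194. With the mouse as a fixed block, Egr1 (adjusted p = 0.0449) and Dusp1 (adjusted p = 0.0315) passed. No library stood apart by Dixon's criterion in the 40 gene and day-phase groups of 4 or 6 libraries examined. Each group pooled several days, whose differences widen the range, so this check can miss a library that departs within its day.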

How the results depend on the processing

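Counts of the 10 genes called moved by more than 1.5 times under some settings. At 1 DPP against later days, 5 were called as reported, 3 with a pseudocount of 0.5, 2 with libraries scaled to the same sum, and 1 without the low-value filter or without the mean-variance trend. Late against early in WT gave 2, and 1 without the filter. For 2 against 1 DPP the count was 0, and 1 with the same sum. For 5 against 3 DPP it was 2, and 1 with a pseudocount of 0.5, no filter, the same sum, quantile normalization or no trend. Genotype at the early days gave 2, and 1 with the same sum or no trend. Genotype at 5 DPP gave 4, and 2 without the trend, and at 7 DPP 1, and 0 without it.

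With the mouse as a fixed replicate block, the counts rose from 0 to 2 for 2 against 1 DPP, from 0 to 1 for the late gain between genotypes, and from 0 to 2 for the change of the genotype difference from 1 to 5 DPP. Zfp36 late in WT was also called. With a correlated block, genotype at the early days went from 2 to 0, and the block changed no other call among the 10. On mouse means, 2 against 2, genotype counts went to 0 over all days (from 3), early (from 2) and late (from 6).

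Without 1 library or 1 mouse, counts ranged from 0 to 4 for 1 DPP, 1 to 8 for late against early, 1 to 4 in WT and 0 to 8 in Tnfr2-/- colonoids. They ranged from 0 to 1 for 2 against 1, 0 to 0 for 3 against 2, 0 to 4 for 5 against 3 and 0 to 1 for 7 against 5 DPP. For genotype they ranged from 2 to 5 over all days, 0 to 3 early and 0 to 6 late, and at 1, 2, 3, 5 and 7 DPP from 0 to 0, 0 to 1, 0 to 1, 0 to 6 and 0 to 2. The late gain between genotypes ranged from 0 to 2 and the change from 1 to 5 DPP from 0 to 3. Cause was not tested.

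Of 6162 values under alternatives, 343 lost and 41 gained a call, none reversed a called direction, and 213 changed sign while called in neither setting. Scaling to the same sum took the median of all genes from 0.00 to 0.12 at 1 DPP, from -0.05 to -0.12 for genotype late and from -0.05 to -0.15 at 5 DPP. The share of all calls that were higher went from 42.0% to 69.9% at 1 DPP and from 59.0% to 43.4% for genotype late. It also moved that share from 55.0% to 42.1% late, 57.7% to 46.3% late in WT, 51.2% to 39.4% late in Tnfr2-/-, and 59.4% to 37.0% for genotype over all days. Early genotype shares went from 64.2% to 51.3% and those at 5 DPP from 73.5% to 61.8%. With 2 mice a genotype and no read counts in the values, Fosb near 1 unit is the least certain of the 10.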
